A study of Mus musculus with 9 samples.

Results

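A set of 9 genes that bring leukocytes from the blood into inflamed tissue was followed in mouse lung: the vascular ligands Vcam1, Icam1 and Icam2, the vascular selectins Sele and Selp, and the leukocyte integrin chains Itga4, Itgal, Itgam and Itgb2. The genes were given as a list. Every probe set of the array whose single annotated symbol is one of them was taken, which gave 13 probe sets for 9 genes out of 12422 probe sets that are not controls. Vcam1 and Itga4 have 3 probe sets each and the other genes 1 each. Probe sets of 1 gene were hybridised to the same RNA and are not replicates of each other.

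A leukocyte leaves a blood vessel in steps. Selectins on activated endothelium and platelets bind sugar-bearing ligands on the leukocyte and slow it to a roll, chemokines switch its integrins to a binding state, and the integrins then hold on to immunoglobulin-type ligands of the vessel wall. VCAM-1 is the ligand of the integrin whose alpha chain is encoded by Itga4, which eosinophils, lymphocytes and monocytes carry, while ICAM-1 and ICAM-2 are ligands of integrins built from the Itgb2 chain. In allergic airways, type 2 cytokines and tumor necrosis factor are known to induce VCAM-1 on endothelium, and this route is known for its part in eosinophil recruitment.

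The RNA was total RNA from lungs of C57BL6 mice in an asthma model induced with ovalbumin (OVA), the egg-white protein used as the allergen. There were 3 groups of 3 arrays. The first had a saline challenge and the second an OVA challenge, while the third, called the agonist group here, had the OVA challenge together with an agonist of EP3, a receptor subtype of prostaglandin E2. The sample titles give 24 h for the OVA and agonist groups. The sources used here do not give the age and sex of the mice, their sensitization, or the compound with its dose and timing. The labels do not say that replicate arrays came from separate mice, so the p-values measure the spread between these samples, which may be technical. RNA of lung tissue was measured, in which fewer cells of a type and less RNA per cell cannot be told apart.

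Values are scaled intensities, the deposited intensity of a probe set after all arrays were brought to 1 common mean, and probe sets above 44.7 on at least 3 of the 9 arrays were tested. That limit, the 40th percentile of all values, is used as the detection limit. The arrays' 2% trimmed means before scaling ran from 139 to 241, and 59.6% to 60.6% of probe sets exceeded the limit on each array. Tissue markers were in place: all 6 lung epithelial genes on the array were bright enough to be tested, as were 12 of 13 endothelial genes (Nos3 was not) and all 9 pan-leukocyte genes. Of 4 eosinophil genes on the array, Epx, Il5ra and Prg2 were below the limit on every array and Ccr3 exceeded it on 1, so none was tested. Agonist replicate 3 stood apart from the other agonist arrays in leukocyte markers, as given below beside Itgb2, and the 3 hybridisation controls each ranked the replicate numbers in 1 order in every group. Control bioB was highest on arrays numbered 2 and lowest on those numbered 3, while bioC and bioD were highest on arrays numbered 1 and lowest on those numbered 2. The labels do not say whether a replicate number stands for a shared processing run.

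Allergen challenge went with opposite changes of 2 vascular ligands. Vcam1 rose 2.18-fold and 1.67-fold on 2 of its 3 probe sets, and Icam2 fell 1.52-fold. In the agonist group 1 Vcam1 probe set fell 1.94-fold against OVA, where 2.75% of all tested probe sets passed. No tested member passed against saline, where only 0.0758% of all tested probe sets did. Icam1 and the tested integrin chains did not pass in any comparison. Itgam was too dim to be tested, and both selectins stayed below the detection limit on all arrays. Of the 8 member probe sets bright enough to be tested, which belong to 6 genes, 3 passed between OVA and saline at an adjusted p under 0.05 (limma, Benjamini-Hochberg over 7920 probe sets), against 9.49% of all tested probe sets. The 2 higher ones stand against 5.08% of probe sets called higher and the 1 lower one against 4.42% called lower.

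**Figure D1:**
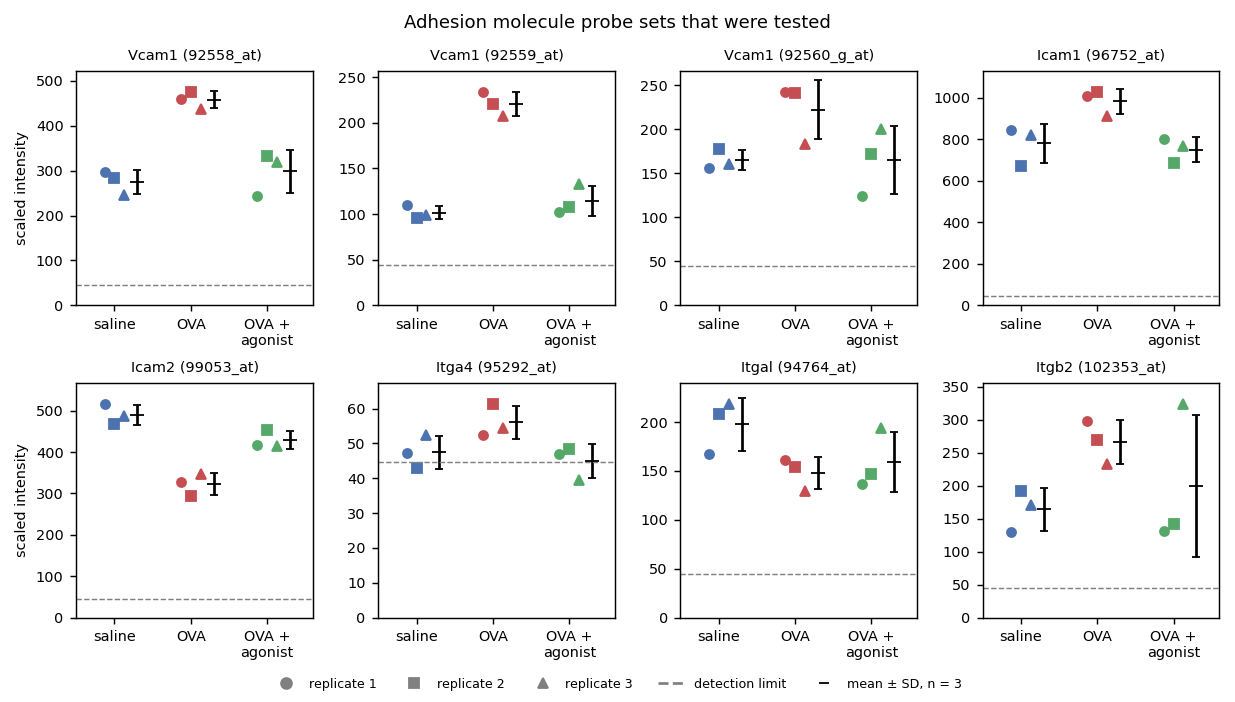
Scaled intensity (vertical axis, linear, from 0) of the 8 tested probe sets on each array, by group on the horizontal axis; the marker shape gives the replicate number, black bars the mean ± SD of 3 arrays and the dashed line the detection limit of 44.7. On Vcam1 probe set 92559_at all OVA arrays (208 to 234) lie above all saline (96.1 to 109) and agonist arrays (102 to 133), Icam2 has its lowest arrays in the OVA group, and the highest Itgb2 array is agonist replicate 3.

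Vcam1 encodes vascular cell adhesion molecule 1, which is displayed by activated endothelium. Probe set 92559_at read 109, 96.1 and 98.6 on saline replicates 1, 2 and 3, then 234, 220.4 and 208 on the OVA arrays and 102, 108 and 133 on the agonist arrays. The 3 OVA arrays were the 3 highest of the 9, with a gap to every other array, while saline and agonist arrays overlapped. Group means were 101 ± 7.06 in saline, 221 ± 12.9 in OVA and 114 ± 16.2 in agonist lung (SD, n = 3). The rise from saline to OVA was 1.12 ± 0.12 on the log2 scale (SE; 95% confidence interval 0.85 to 1.40; adjusted p = 0.00854), and it was 1.09, 1.20 and 1.08 within replicate numbers 1, 2 and 3. Leaving out any 1 of the 9 arrays kept the call (highest adjusted p 0.0429).

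From OVA to agonist the same probe set fell by 0.96 ± 0.12 on the log2 scale (95% confidence interval −1.23 to −0.68; adjusted p = 0.0209), by 1.19, 1.03 and 0.65 within replicate numbers. This call was lost without OVA replicate 1 (adjusted p = 0.112), OVA replicate 2 (0.0817), agonist replicate 1 (0.0721) or agonist replicate 2 (0.0709), and in a fit of only the 6 challenged arrays (0.0852). A fit with the replicate number as a block lost it too (0.105). The agonist group differed from saline by 0.17 on the log2 scale, with a 95% confidence interval of −0.11 to 0.44 (adjusted p = 0.779). This comparison and the one before it share the agonist arrays, as the first and second share the OVA arrays.

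The second Vcam1 probe set, 92558_at, gave 298, 284 and 245 in saline, 460.5, 475 and 438 in OVA and 243, 334 and 319 in agonist lung. Again no OVA array overlapped another group, and the means were 275 ± 27.2, 458 ± 19.0 and 299 ± 48.6. It rose by 0.74 ± 0.14 from saline to OVA (log2; adjusted p = 0.0245; 0.63, 0.74 and 0.84 within replicate numbers). That call was lost without any 1 saline array (adjusted p of 0.0564 to 0.0768) and without OVA replicate 1 (0.0895) or 2 (0.0763). With the replicate number as a block it was also lost (0.0669). Against OVA the agonist group differed by −0.63 ± 0.14, just outside the threshold (adjusted p = 0.0565).

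The third, 92560_g_at, has the same annotated source sequence as 92559_at, while 92558_at has another. The third showed less. It read 157, 178 and 161 in saline, 243, 241 and 184 in OVA and 124, 171 and 201 in agonist lung. OVA replicate 3 lay only just above the highest saline array and below agonist replicate 3. The log2 change was 0.42 ± 0.19 from saline to OVA (adjusted p = 0.191) and −0.44 ± 0.19 from OVA to agonist (adjusted p = 0.208). All 3 probe sets thus pointed the same way in both comparisons, and the difference in size between them was not tested.

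Icam1 encodes intercellular adhesion molecule 1, a ligand of both Itgal- and Itgam-containing integrins that lung endothelium and epithelium display. Its probe set read 843, 673 and 822 in saline, 1007, 1027 and 911 in OVA and 800.2, 684 and 766 in agonist lung. The OVA arrays were the highest 3, and saline replicate 2 was the lowest of all 9. Its means were 779 ± 92.5, 981 ± 62.2 and 750.1 ± 59.6. The log2 difference was 0.34 ± 0.12 between OVA and saline (95% confidence interval 0.07 to 0.61; adjusted p = 0.105) and −0.39 ± 0.12 between agonist and OVA (−0.66 to −0.12; adjusted p = 0.102). Neither passed.

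Icam2 encodes intercellular adhesion molecule 2, which resting endothelium carries without stimulation. It read 516, 468 and 487 in saline, 328, 295 and 346 in OVA and 416, 454 and 415 in agonist lung. The groups formed 3 separate bands, saline highest and OVA lowest, with no array of one group inside another. Means were 490.3 ± 23.8, 323 ± 26.0 and 429 ± 22.0. The gene fell from saline to OVA by 0.60 ± 0.09 on the log2 scale (95% confidence interval −0.82 to −0.39; adjusted p = 0.0150), with −0.65, −0.67 and −0.49 within replicate numbers. That call was lost without saline replicate 1 (adjusted p = 0.0515) or 3 (0.0531) and without OVA replicate 1 (0.0631) or 2 (0.0541). Taking the replicate number as a block lost it as well (0.0616). From OVA to agonist the difference was 0.41 ± 0.09 (adjusted p = 0.0592) and from saline to agonist −0.19 ± 0.09 (adjusted p = 0.688), neither passing.

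Endothelial markers moved with Icam2. Beside the counts of this and the other marker lists stand 5.08% of all tested probe sets called higher and 4.42% called lower in OVA. Of 12 tested genes of the endothelial list, 6 fell from saline to OVA and 0 rose, with a median log2 change of −0.51 against −0.08 over all 7920 probe sets. Between agonist and OVA, 3 of the 12 were called higher and 0 lower, against 1.25% of all tested probe sets called higher. The summed intensity of the 12 was 16852 to 17224 in saline, 12652 to 13914 in OVA and 16355 to 17484 in agonist lung. Kdr encodes a receptor for vascular endothelial growth factor and went from 1174 ± 8.13 to 791 ± 48.1 (adjusted p = 0.0136). Sox17, which controls transcription in arterial endothelium, went from 438 ± 59.1 to 274 ± 6.80 (adjusted p = 0.0290). Vcam1 thus went against the direction of this list. Lung epithelial markers were lower too: 3 of 6 fell and 0 rose, among them Sftpb, a surfactant protein (1.41-fold, adjusted p = 0.0371), and Hopx, a marker of alveolar type 1 cells (1.40-fold, adjusted p = 0.0379). What part such shifts have in the Icam2 value was not tested.

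**Figure D2:**
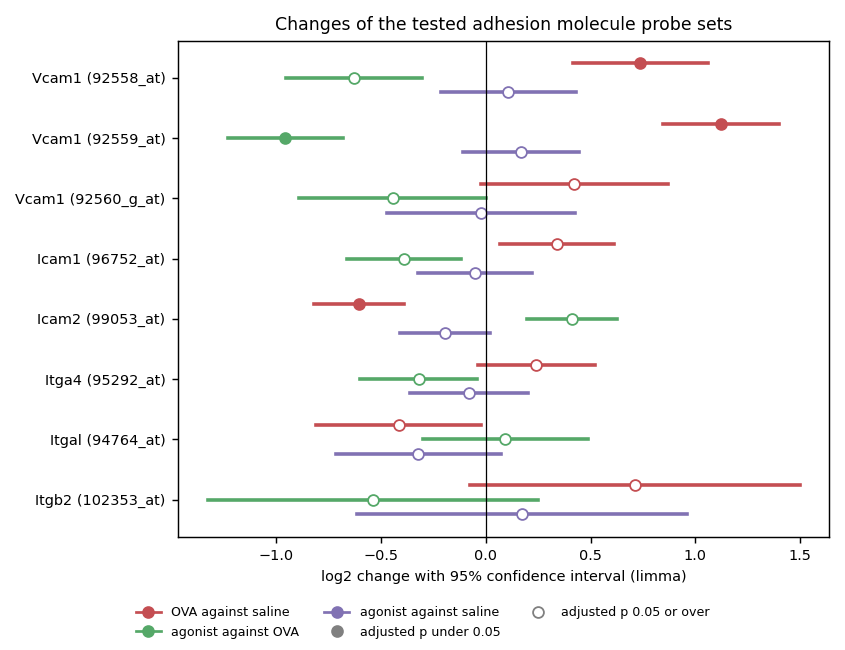
Log2 change (horizontal axis) of each tested probe set (rows) with its 95% confidence interval from limma, in red for OVA against saline, green for agonist against OVA and purple for agonist against saline; filled points have an adjusted p under 0.05. There are 4 filled points: Vcam1 92558_at (0.74), Vcam1 92559_at (1.12) and Icam2 (−0.60) for OVA against saline, and Vcam1 92559_at (−0.96) for agonist against OVA, and all 8 purple intervals include 0.

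The selectins gave no usable level. Sele encodes E-selectin, made by endothelium after cytokine stimulation, and read 16.0, 19.97 and 24.4 in saline, 35.0, 33.7 and 22.9 in OVA and 13.1, 12.4 and 16.6 in agonist lung. Every agonist array was below every OVA array, yet all 9 values lay under the detection limit. Selp encodes P-selectin, stored in endothelium and platelets. Its values were −62.0, −98.0 and −194 in saline, 4.52, −40.0 and −66.1 in OVA and −103, −91.4 and −103 in agonist lung, so all but OVA replicate 1 were below 0. No fold is given for either gene. Without the filter on dim probe sets, neither passed in any comparison (lowest adjusted p 0.0703, for Sele between agonist and OVA).

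**Figure D3:**
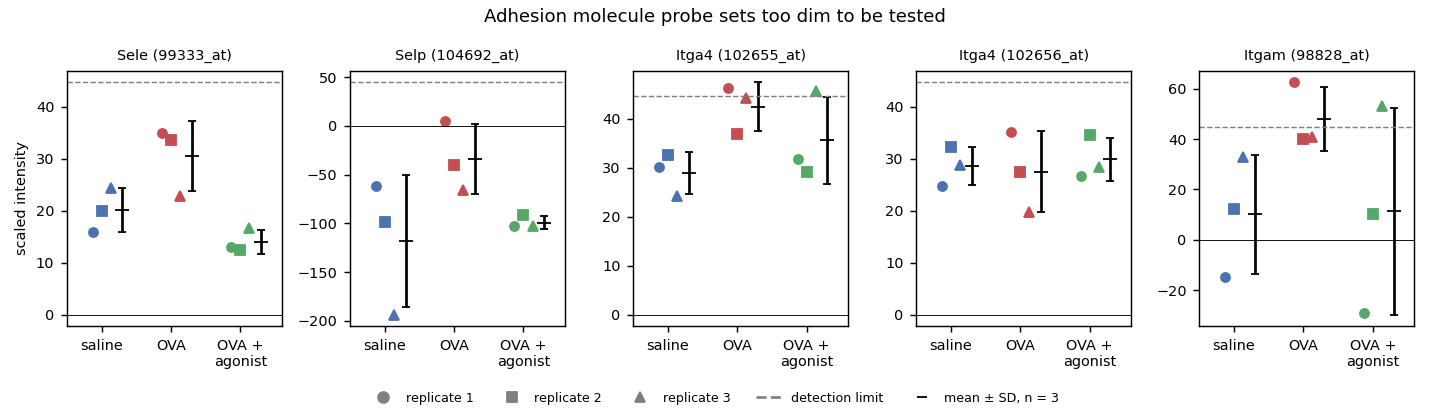
Scaled intensity (vertical axis, linear) of the 5 probe sets that were too dim to be tested, by group on the horizontal axis; the dashed line is the detection limit of 44.7, the thin line 0, marker shapes are replicate numbers and black bars mean ± SD of 3 arrays. Sele, Selp and Itga4 102656_at stay under the limit on all 9 arrays, and Itga4 102655_at and Itgam exceed it on 2 arrays each, OVA replicate 1 and agonist replicate 3.

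Among the integrin chains, Itga4 encodes the alpha chain of the VCAM-1 receptor. Only 1 of its 3 probe sets, 95292_at, was tested. It read 47.2, 42.9 and 52.3 in saline, 52.5, 61.3 and 54.4 in OVA and 47.0, 48.3 and 39.4 in agonist lung, all close to the detection limit. OVA arrays were the highest 3, with OVA replicate 1 just above saline replicate 3. The log2 difference was 0.24 ± 0.12 between OVA and saline (adjusted p = 0.228) and −0.32 ± 0.12 between agonist and OVA (adjusted p = 0.161). Probe set 102655_at read 30.1, 32.6 and 24.3, then 46.3, 36.9 and 44.3, then 31.8, 29.2 and 45.8, and 102656_at stayed between 19.7 and 35.2 with all groups overlapping.

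Itgal encodes the alpha chain of LFA-1, an ICAM receptor of lymphocytes and other leukocytes. It read 167, 209 and 218 in saline, 161, 154 and 129 in OVA and 136, 147 and 194 in agonist lung. All OVA arrays lay below all saline arrays, with saline replicate 1 close above OVA replicate 1, and the agonist group overlapped both. The log2 difference between OVA and saline was −0.42 ± 0.17 (95% confidence interval −0.81 to −0.02; adjusted p = 0.153). Between agonist and OVA it was 0.09 (−0.30 to 0.49; adjusted p = 0.775).

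Itgam encodes the alpha chain of Mac-1, carried by neutrophils, monocytes, macrophages and eosinophils. Its probe set read −14.6, 12.1 and 32.8 in saline, 62.5, 40.1 and 40.9 in OVA and −29.2, 10.4 and 53.0 in agonist lung. All OVA arrays lay above all saline arrays, but only OVA replicate 1 and agonist replicate 3 passed the detection limit. It was not tested, and without the filter its adjusted p was 0.382 between OVA and saline.

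Itgb2 encodes the beta chain shared by LFA-1 and Mac-1. It read 129, 192 and 171 in saline, 298, 269 and 232 in OVA and 131, 143 and 323 in agonist lung. Agonist replicates 1 and 2 lay among the saline arrays, and agonist replicate 3 was the highest of all 9. Means were 164 ± 32.2, 266 ± 33.1 and 199 ± 108. The log2 difference was 0.71 ± 0.34 between OVA and saline (95% confidence interval −0.08 to 1.50; adjusted p = 0.206) and −0.54 ± 0.34 between agonist and OVA (−1.33 to 0.25; adjusted p = 0.368).

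Without agonist replicate 3 both passed: the adjusted p was 0.0452 for OVA against saline, with the same difference of 0.71, and 0.0374 for agonist against OVA, where the difference became −0.95. With any other array left out neither passed, and the highest adjusted p was 0.411 and 0.667. The OVA against saline difference itself uses no agonist array. In fits of only the 6 arrays compared, neither difference passed. The adjusted p there was 0.0709 for OVA against saline and 0.431 for agonist against OVA. Without agonist replicate 3 the agonist mean was 137 ± 7.94 (SD, n = 2). Against saline, the agonist difference turned from 0.17 to −0.24 (adjusted p = 0.823).

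Leukocyte markers moved with Itgb2 but not with Itgal, which was lower in OVA than in saline lung (log2 −0.42, not passing). The summed intensity of 9 pan-leukocyte genes was 4021 to 4564 in saline and 6541 to 7686 in OVA lung, then 4685, 4642 and 7325 on agonist replicates 1, 2 and 3. Of these 9 genes, 3 rose from saline to OVA and 0 fell. They include Cd52, a small surface glycoprotein (864 ± 99.5 to 1782 ± 188, adjusted p = 0.0308), and Lcp1, the actin bundler of blood cells (795 ± 5.28 to 1417 ± 89.9, adjusted p = 0.0348). Ptprc, the CD45 antigen, was at 207 ± 51.4 and 346 ± 36.6 on its brightest probe set (adjusted p = 0.0829).

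Macrophage and dendritic cell markers summed to 3995 to 4222 in saline and 8544 to 9272 in OVA lung, then 4334, 4648 and 6955 on the agonist arrays. Of 12 tested, 7 rose from saline to OVA and 0 fell, and 2 fell from OVA to agonist, C1qa and C1qb of the complement C1q complex.

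Of 9 tested neutrophil genes, 1 rose from saline to OVA and the list's median log2 change was 0.01. The gene was Lcn2, the siderophore-binding protein lipocalin (539 ± 38.6 to 2518 ± 479, adjusted p = 0.0212). The summed intensity of the list was 1859.9 to 1962 in saline, 3336 to 4407 in OVA and 6081, 2161 and 6524 on the agonist arrays, and a few genes carried it. On the OVA arrays Lcn2 alone read 2608, 2946 and 1999.9. Ltf, the granule protein lactoferrin, had means of 117 ± 40.7 (saline) and 235 ± 61.3 (OVA), with adjusted p = 0.0688.

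On the agonist arrays S100a8 read 2281, 287 and 2026, against 259 to 421 on the saline and OVA arrays, and its partner S100a9 read 1542, 128 and 1180.5, against 98.0 to 152. These subunits of calprotectin were picked after their values were seen. Elane, neutrophil elastase, read 74.9, 92.5 and 74.8 on the same arrays, within or just below its saline range. Agonist replicate 1 was high in S100a8 and S100a9 but close to the saline arrays in Itgb2 and pan-leukocyte markers.

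No gene of the lymphocyte lists passed, with 5 T cell and 5 B cell genes tested and median log2 changes of 0.15 and 0.10 between OVA and saline. Thy1, a surface glycoprotein of T cells, came nearest, at 59.7 ± 10.5 in saline, 131 ± 15.2 in OVA and 57.8 ± 28.6 in agonist lung. Its OVA arrays overlapped neither other group, with adjusted p = 0.0606 between OVA and saline and 0.0690 between agonist and OVA. Between OVA and saline the adjusted p was 0.379 for Cd3d, a chain of the T cell receptor complex, 0.577 for Cd79b, a chain of the B cell receptor complex, and 0.409 for Blk, a B cell kinase. The other 6 T cell genes (Cd3e, Cd3g, Cd5, Cd8a, Cd8b1 and Icos) were under the limit on all arrays. The only tested platelet gene, Gp9, fell 1.28-fold (138 ± 6.64 to 107 ± 7.25, adjusted p = 0.0482), a call lost with any 1 array left out, and Pf4, Gp1bb and Gp5 were under the limit. The part of cell numbers in the integrin values was not tested.

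**Figure D4:**
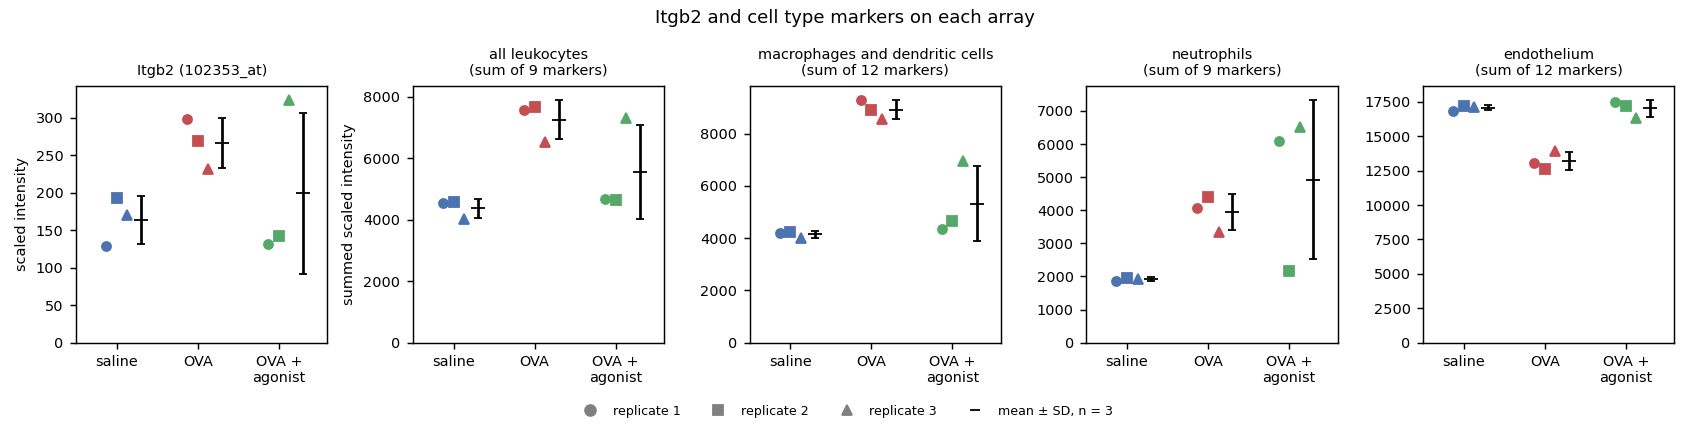
Scaled intensity of Itgb2 (left) and the summed scaled intensity of 9 pan-leukocyte, 12 macrophage and dendritic cell, 9 neutrophil and 12 endothelial marker genes (vertical axes, linear, from 0) on each array, by group; marker shapes are replicate numbers and black bars mean ± SD of 3 arrays. Agonist replicate 3 is the highest array for Itgb2 and, within its group, for the leukocyte (7325) and macrophage sums (6955), while agonist replicates 1 and 3 have the highest neutrophil sums (6081 and 6524), to which S100a8 alone adds 2281 and 2026, Lcn2 adds most to the OVA sums, and endothelial sums are lowest in OVA lung.

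Across the members, OVA and saline arrays did not overlap in all 8 tested probe sets, 6 higher and 2 lower in OVA, against 37.6% of all tested probe sets without overlap. No tested member passed the filter through 1 group alone, since each had at least 2 arrays above the limit in every group. The 8 probe sets had a median log2 change of 0.38, beside −0.08 over all 7920. Of the 5 untested probe sets, 2 were higher in OVA without overlap (Itgam and Itga4 102655_at) and 3 overlapped. Itgam and Itga4 102655_at each exceeded the detection limit on only 1 OVA array. The share without overlap among all untested probe sets was not counted.

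Between agonist and OVA, 1 of 8 tested member probe sets passed, against 2.75% of all tested (1.5% called lower and 1.25% called higher). Groups did not overlap in 5 of the 8, against 29.9% of all: Vcam1 92558_at and 92559_at, Icam1 and Itga4 95292_at were lower and Icam2 higher in the agonist group. The median log2 change of the 8 was −0.42, beside 0.06 over all. Between agonist and saline 0 of 8 passed limma's test, 0 of 8 had an unadjusted p under 0.05, and 1 of 8 (Icam2) had groups that did not overlap, against 0.0758%, 7.71% and 13.7% of all tested probe sets. The median of the 8 was −0.04.

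Other genes of the adhesion cascade were listed by role, with 1 probe set counted per gene. Beside the counts of these lists stand 5.08% of all tested probe sets called higher and 4.42% called lower in OVA. Of 10 tested selectins, selectin ligands and enzymes that make them, 3 rose from saline to OVA and 0 fell. Cd44, a hyaluronan receptor that also binds E-selectin, rose 1.98-fold (80.1 ± 15.7 to 157 ± 18.4, adjusted p = 0.0226). St3gal4, a sialyltransferase of selectin ligands, rose 1.68-fold (226 ± 14.5 to 382 ± 61.8, adjusted p = 0.0270), and Gcnt1, which branches their O-glycans, 1.46-fold (56.8 ± 3.24 to 83.2 ± 7.23, adjusted p = 0.0263). The median of this list was 0.35.

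Of 7 other leukocyte integrin chains, 1 rose and 0 fell. Itgax, a partner of Itgb2 on dendritic cells and lung macrophages, read 288, 274 and 128 in saline, 592, 687 and 496 in OVA and 287, 251 and 256 in agonist lung. It rose 2.71-fold (adjusted p = 0.0308), and its difference between agonist and OVA was −1.15 ± 0.30 (log2; adjusted p = 0.0781). Unlike Itgb2, Itgax was not high on agonist replicate 3. Itga6, a laminin receptor chain, was at 189 ± 9.64 and 129 ± 16.1 (adjusted p = 0.112), and Itgae, a chain of intraepithelial lymphocytes, at 25.9 ± 19.7 and 49.5 ± 32.1 (adjusted p = 0.503). Every saline array of Itgae was under the detection limit.

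Of 13 other immunoglobulin-family and junction molecules, 2 fell from saline to OVA and 0 rose, with a median of −0.29. Cdh5, the cadherin of endothelial junctions, fell 1.43-fold (2525 ± 104 to 1768 ± 142, adjusted p = 0.0200). It is counted on the endothelial list as well. Of the 5 adhesion lists Cdh5 was the 1 gene that passed between agonist and OVA. There it was 1.36-fold higher (2406 ± 93.2, adjusted p = 0.0475). F11r, a junctional adhesion molecule, fell 1.30-fold (1381 ± 16.8 to 1064 ± 78.3, adjusted p = 0.0371). Madcam1, the gut addressin, scattered from −46.0 to 359 within and across groups and did not pass (adjusted p = 0.759).

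Of 15 genes that activate integrins or tie them to actin, 2 rose and 1 fell. Apbb1ip, the Rap effector RIAM, rose 1.66-fold (287 ± 14.5 to 476 ± 43.1, adjusted p = 0.0335) and Fermt3, the kindlin of blood cells, 1.48-fold (142 ± 5.32 to 209.9 ± 14.3, adjusted p = 0.0245). Fermt2, the kindlin of other tissues, fell 1.40-fold (1303 ± 85.8 to 935 ± 81.4, adjusted p = 0.0296). The pair of kindlins therefore changed in opposite directions, and the list's median was −0.06.

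Among 13 tested cytokine and NF-kB genes known to act upstream of adhesion molecules, 1 rose and 0 fell. Nfkb2, an NF-kB subunit precursor, read 40.9, 40.7 and 51.8 in saline, 100.3, 106 and 99.9 in OVA and 58.7, 43.5 and 82.0 in agonist lung, a 2.31-fold rise (adjusted p = 0.0226). Its partner Relb was at 96.0 ± 28.0, 203 ± 6.03 and 107 ± 55.3 (adjusted p = 0.0878 between OVA and saline). Il1b, interleukin 1 beta, was at 9.04 ± 18.7, 65.1 ± 28.9 and 99.7 ± 92.5 (adjusted p = 0.132), with every saline array under the detection limit. Tnf, Il4 and Ifng were below the limit on all arrays.

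The OVA against saline calls of these adhesion list genes, and those of Cd52, Lcp1, Lcn2, Kdr, Sox17, Sftpb and Hopx, were each lost in 3 to 6 of the 9 fits that left out 1 array (highest adjusted p 0.126, for Hopx). All were lost without saline replicate 2 and without OVA replicate 2, and all but Kdr also without OVA replicate 1. C1qa and C1qb passed in all 9 between OVA and saline and in 1 of 9 between agonist and OVA, and Cdh5 passed in 1 of 9 there.

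The genes whose profile over the 9 arrays lay nearest to that of a called member were found by the root mean square difference between log2 profiles, each centred on its own mean. Nearest to Vcam1 (92558_at) were Tnfaip8, a gene induced by tumor necrosis factor (0.0951), Sema4d, a semaphorin of lymphocytes (0.109), and Ppp2r5c, a regulatory subunit of protein phosphatase 2A (0.115). Tnfaip8 read 149.6, 144 and 131 in saline, 242, 233 and 217 in OVA and 135, 157 and 188 in agonist lung. Nearest to Icam2 were Prkci, an atypical protein kinase C (0.0680), Numb, an inhibitor of Notch (0.0708), and Tmbim1, a membrane protein of lysosomes (0.0770). Numb read 649, 661 and 605 in saline, 403, 416 and 452 in OVA and 526, 572 and 527 in agonist lung, the same order of groups as Icam2. These genes were picked for their likeness, so their values are a description only.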

How the data were processed

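The deposited values are linear intensities, 1 for each probe set on an array, and each array has some below 0. What the authors subtracted, and how probe sets were summarised, the sources used here do not state. Gene symbols are those of the array's probe annotation: 10833 probe sets carry 1 symbol, 396 several and 1193 none, and 66 controls were left out. Of the single symbols 10817 matched a RefSeq gene table by gene ID, with 0 changed.

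Each array was scaled to the mean of the 2% trimmed means. Scaled values under 3.1 (the 20th percentile) were raised to it and log2 was taken. Probe sets with at least 3 arrays above 44.7 (the 40th percentile) were tested, 7920 in all (63.8%). All 9 arrays entered 1 limma 3.58.1 fit (R 4.3.3; lmFit and eBayes, 6 residual and 1.69 prior degrees of freedom), two-sided, with Benjamini-Hochberg adjustment over all tested probe sets and a threshold of 0.05. A fold is the log2 change put back on the linear scale. The number of arrays limits the precision. The fit was tested on simulated data with known changes.

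Members, lists, tests and alternatives were chosen with earlier results of these data known. Named genes are all member probe sets; up to 3 genes per adhesion list and 2 per cell type list with the largest log2 change between OVA and saline, called ones first, on the brightest probe set; Ptprc; and the 3 nearest profiles of each called member. Replicate numbers were checked for pairing: same-numbered arrays' deviations from group means correlated between −0.139 and 0.17. Between OVA and saline these correlations were all above 0 (0.169, 0.112 and 0.0354). Differently numbered arrays of that comparison correlated between −0.154 and 0.0438. In the other comparisons same-numbered arrays gave both signs. Numbers were not taken as pairs in the main fit, and the check does not decide whether they stand for a shared run. Alternatives were another scaling, floor, filter, variance model, threshold or set of arrays.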

Additional observations from a re-analysis of the deposited data

How the results depend on the processing

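None of the 8 tested member probe sets changed direction under quantile normalization, equal array medians, the other floors, filters (at the 60th percentile Itga4 was not tested) or variance model, the 6-array fits or the replicate block. The 5 untested ones were fitted only without the filter. Between agonist and OVA, 218 probe sets and 1 member passed, and counts moved to 361 and 2 with the floor at the 40th percentile, 445 and 3 with the filter at the 60th, 453 and 3 with an intensity trend and robust prior, 18 and 0 with only the 6 arrays compared, and 831 and 3 at an adjusted p of 0.1. The members gained were Vcam1 92558_at and, in the counts of 3, Icam2. Between OVA and saline, 752 probe sets passed, and 1511 at 0.1. Between agonist and saline, 6 passed, and 3 with the filter at the 60th percentile.

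The check of replicate numbers does not decide whether they pair the arrays. The 3 hybridisation controls do follow the number. With the replicate number as a block, 50 probe sets and 1 member (Vcam1 92559_at) passed between OVA and saline, 14 and 0 between agonist and OVA, and 2 and 0 between agonist and saline.

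Leaving out 1 array at a time gave 80 to 857 probe sets and 1 to 4 members between OVA and saline, 7 to 526 and 0 to 2 between agonist and OVA, and 5 to 16 and 0 to 0 between agonist and saline. The lowest probe set counts of the first and second came without OVA replicate 1 and the highest without agonist replicate 3. Values that had not passed and changed sign in such fits were, between OVA and saline, Madcam1 (−3.59 to 0.18); between agonist and OVA, Itgal (−0.0571 to 0.20; −0.00217 without OVA replicate 3); and between agonist and saline, Itgb2 (−0.24 to 0.41), Vcam1 92560_g_at (−0.18 to 0.17; 0.03 without saline replicate 2), Itga4 95292_at (−0.15 to 0.0108) and Icam1 (−0.15 to 0.0141; 0.0095 without saline replicate 1). Signal over background limits Sele, Selp, Itgam and 2 of 3 Itga4 probe sets. Causes were not tested.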
